A study of Rattus norvegicus with 18 samples.

Results

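The AP-1 subunits Fos, Fosb, Fosl1, Fosl2, Jun, Junb and Jund, the zinc finger factors Egr1 and Egr2, and Ier2 were followed in rat fibroblasts with and without MYC and with or without siRNAs against the aryl hydrocarbon receptor. The genes were chosen by name, with earlier results of these data known, and all 10 were found among the 13188 genes of the expression table. RNA sequencing had been done on 18 cultures of HO15.19 cells, a Rat1 fibroblast line in which both copies of the rat myc gene are disrupted (myc-/-). All 6 groups of 3 cultures carried this deletion and came from this 1 line. The untransfected groups were myc-/- cells and cells stably infected with a virus carrying human MYC (myc-/- + MYC). The transfected groups received 40 nM siRNA for 48 h. A control siRNA was given to cells without MYC (myc-/- siCtrl) and with MYC (myc-/- + MYC siCtrl). Separate siRNAs against the aryl hydrocarbon receptor were given only to cells with MYC, 1 per group (myc-/- + MYC siAHR-2 or, in the other group, siAHR-5). The study states that cells without MYC expressed a vector. The labels give 10% serum for all cultures, whereas the methods text names a lower level for Rat1 fibroblasts, and which of them applied is not settled here.

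Immediate early genes are transcribed within minutes of a growth signal, without new protein synthesis, when kinases of the MAPK pathways act on factors already bound at their promoters. Fos and Jun family proteins pair through leucine zippers to form AP-1, which binds the sequence TGAGTCA, whereas EGR proteins bind GC-rich sites through zinc fingers. In fibroblasts these factors are known for the response to serum, wounding and stress, and for the control of proteases and matrix genes.

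The deposited values are normalized expression on a log2 scale, and they fall into 2 sets, of 6 and 12 libraries, on different scales. The sources used here do not settle how they were transformed, so the folds given are powers of 2 of a difference in these values and may not equal ratios of transcript levels. The 6-library set holds myc-/- siCtrl and myc-/- + MYC. The 12-library set holds myc-/- together with the 3 transfected groups that carry MYC, and the leading principal component, with 74.7% of the variance, separated the sets. Groups were set against each other within a set, and across the sets only the size of the MYC effect was compared. MYC runs together with a difference in transfection in both sets, with MYC in the untransfected cells of the 6-library set and in the siCtrl cells of the 12-library set, so that the effects of MYC and of transfection cannot be told apart. All 12 fibroblast markers of the list used were in the table, and 11 of them, among them Vim, Col1a1 and Col3a1, had a mean above 5 in each group. The exception was Col1a2, at 3.64 to 4.13. A mean above 5 does not tell cell types apart here, since 4 or 5 of 6 blood and immune markers, 4 of 5 endothelial markers and 1 to 3 of 8 epithelial markers also reached it, Cd14 and Vwf among them. The summed level of a list (log2 of the summed powers of 2, not per length) was 20.0 to 22.2 for fibroblast markers, 10.4 to 11.9 for blood and immune, 9.06 to 10.8 for endothelial and 7.99 to 9.21 for epithelial markers over all libraries. Fibroblast, blood and immune, and endothelial sums were lower with MYC in both sets and epithelial sums were higher. Blood and immune sums were 10.86 to 10.94 with siAHR-5, beside 10.36 to 10.56 with siCtrl and 10.37 to 10.54 with siAHR-2. Fibroblast sums were 20.05 to 20.09 with siAHR-2 and 20.05 to 20.07 with siAHR-5, beside 20.28 to 20.31 with siCtrl. Endothelial and epithelial sums with the siRNAs overlapped those with siCtrl. The part of these differences in the results was not tested. The defining markers Ptprc and Epcam read at most 4.65 and 2.42. Ahr ranged from 13.22 to 13.34 in siCtrl cells, from 11.97 to 12.03 with siAHR-2 and from 11.76 to 11.95 with siAHR-5. Residual rat Myc signal was lower with MYC in both sets, with a log2FC (difference of mean log2 values) of -1.26 and -2.68, and the human transgene was not analysed here. Values are not per length and are not compared between genes, and depth is unknown. Nothing states that the cultures were grown separately, so p-values measure the spread between these cultures.

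The question of the first comparison was how MYC alters the immediate early factors in myc-/- cells. In the 6-library set, Fos and Egr1 were higher in myc-/- + MYC cells, by 3.38-fold and 2.61-fold, and Fosl1 and Jund were lower, by 3.82-fold and 1.91-fold. These 4 of 10 factors passed both cutoffs, a change of at least 1.5-fold on the log2 scale and a limma adjusted p of at most 0.01, while 26.8% of all genes did so. The 2 that rose stood beside 12.5% of all genes and the 2 that fell beside 14.3%. The 3 values with MYC and the 3 without did not overlap for any of the 10, which held for 78.8% of all genes. In the 12-library set, Egr1, Ier2, Fos and Egr2 were higher with MYC and Fosb was lower. There 5 of 10 passed, beside 25.5% of all genes, with 4 up beside 10.8% and 1 down beside 14.7%, and 9 of 10 had no overlap, beside 70.5%. The median log2FC of the 10 was -0.38 in the 6-library set and 0.02 in the 12-library set (0.20 after quantile normalization and 0.07 after median centring). These are levels in bulk RNA, in which fewer cells with a transcript and less of it per cell cannot be told apart.

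**Figure D1:**
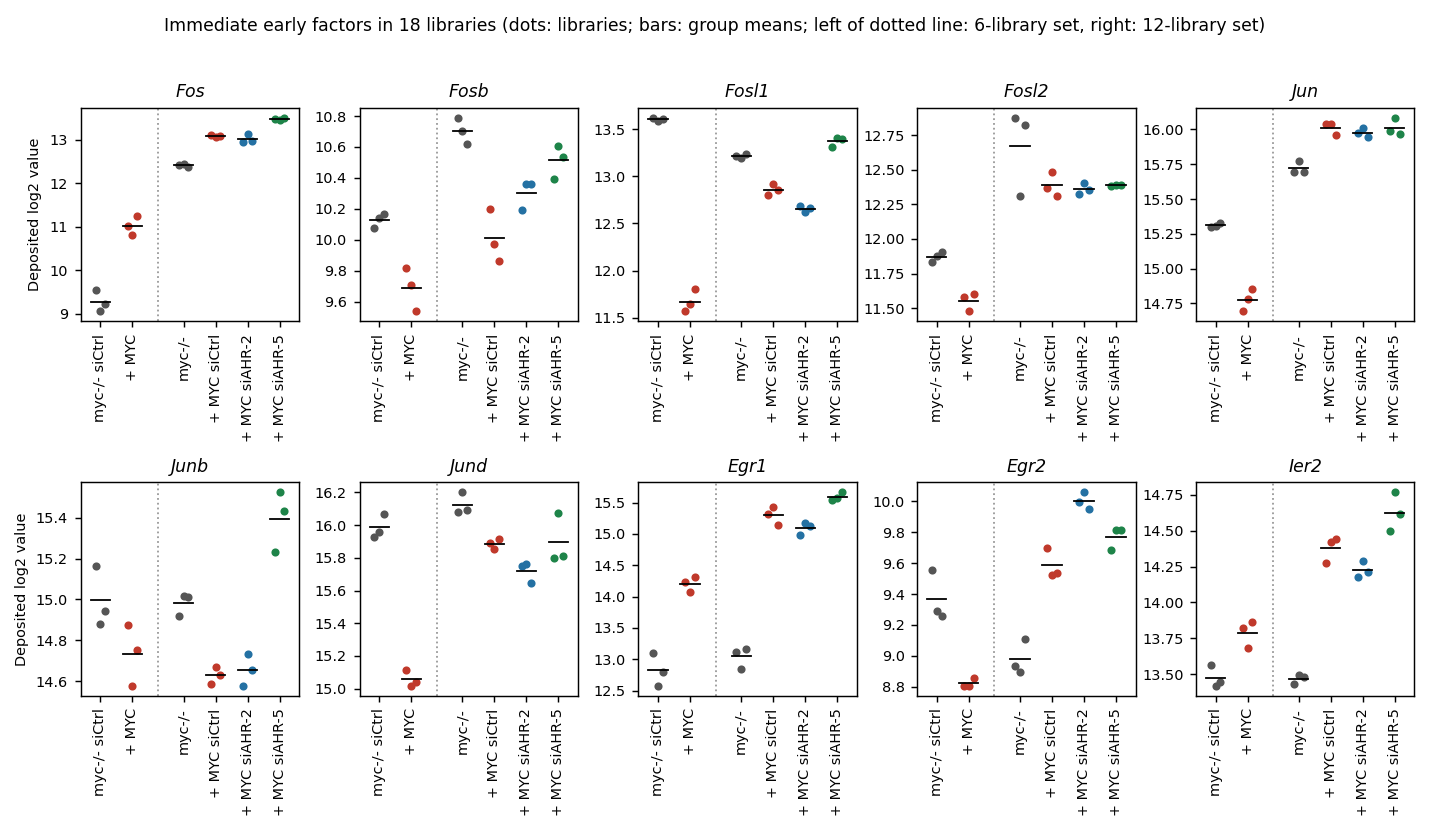
Deposited log2 value (vertical axis, scaled for each gene) of each of the 10 factors in the 18 libraries. Dots are libraries, bars are means of 3, and the dotted line parts the 6-library set (left) from the 12-library set (right), which are not on a common scale. Egr1 and Fos lay higher with MYC on both sides of the line, and Junb stood highest with siAHR-5.

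Egr1 encodes a zinc finger factor that is among the fastest to respond to serum. Its log2 values in the 6-library set were 13.11, 12.57 and 12.80 in myc-/- siCtrl cells and 14.24, 14.08 and 14.31 in myc-/- + MYC cells. Each culture with MYC was thus above each culture without. The log2FC was 1.38 (standard error, SE, 0.107, limma adjusted p = 3.14e-07). In the 12-library set the values were 13.12, 12.84 and 13.17 in myc-/- cells and 15.31, 15.43 and 15.14 in myc-/- + MYC siCtrl cells. Among the 10 factors it was the largest log2FC in that set, with a value of 2.25 (SE 0.113, limma adjusted p = 1.38e-05).

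Egr2 encodes a related zinc finger factor known for its role in myelination. Its values in the 6-library set were 9.56, 9.29 and 9.26 without MYC and 8.81, 8.80 and 8.85 with MYC. All cultures with MYC were lower, with a log2FC of -0.55 (SE 0.0786, limma adjusted p = 6.25e-05), which did not reach the fold cutoff. It reached it when myc-/- siCtrl replicate 2 or replicate 3 was left out, up to -0.60, and after centring each library on its median (-0.59). Egr2 in the 12-library set was 8.94, 8.90 and 9.11 in myc-/- cells and 9.70, 9.53 and 9.54 in myc-/- + MYC siCtrl cells. Here the cultures with MYC were higher, with a log2FC of 0.61 (SE 0.0834, limma adjusted p = 0.00105). Without myc-/- + MYC siCtrl replicate 1 or myc-/- replicate 2 the call was lost, and the lowest value was 0.55.

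Fos encodes the founding partner of Jun in AP-1. It read 9.53, 9.05 and 9.21 in myc-/- siCtrl cells and 11.01, 10.81 and 11.25 in myc-/- + MYC cells. The lowest culture with MYC lay well above the highest without, and the log2FC was 1.76 (SE 0.125, limma adjusted p = 1.55e-07). Values in the 12-library set were 12.42, 12.44 and 12.38 in myc-/- cells against 13.12, 13.07 and 13.09 in myc-/- + MYC siCtrl cells. Cultures within each of these groups were close together, and the log2FC was 0.68 (SE 0.0304, limma adjusted p = 8.87e-06).

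Fosl1 encodes FRA-1, a Fos relative that lacks the transactivation domain of Fos. In the 6-library set it fell from 13.62, 13.58 and 13.61 to 11.57, 11.64 and 11.80 with MYC. This was the largest change of the 10 factors in that set, with a log2FC of -1.94 (SE 0.0527, limma adjusted p = 5.04e-11). It was, in the 12-library set, 13.21, 13.20 and 13.24 in myc-/- cells and 12.80, 12.92 and 12.85 in myc-/- + MYC siCtrl cells. The cultures with MYC were again all lower, but the log2FC of -0.36 (limma-adjusted p = 3.40e-04) was short of the fold cutoff.

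Fosb, whose product also pairs with Jun proteins, read 10.08, 10.14 and 10.17 without and 9.82, 9.71 and 9.54 with MYC in the 6-library set, a log2FC of -0.44 (limma-adjusted p = 1.48e-04) that did not pass the fold cutoff. It fell in the 12-library set from 10.79, 10.71 and 10.62 to 10.20, 9.97 and 9.86, with a log2FC of -0.69 (SE 0.0982, limma adjusted p = 0.00120). The cultures with MYC were below those without in both sets. Fosl2, which encodes FRA-2, had a log2FC of -0.32 in the 6-library set (limma-adjusted p = 4.02e-05), short of the fold cutoff. It was the only member with overlapping groups in the 12-library set. There its values were 12.88, 12.31 and 12.83 in myc-/- cells and 12.37, 12.49 and 12.31 with MYC, with a log2FC of -0.28 (limma-adjusted p = 0.168). Replicate 2 of the myc-/- cells stood apart from the other two, and without it the log2FC was -0.46.

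The Jun genes encode the AP-1 subunits that can pair with each other as well as with Fos proteins. Jund, which is usually the steadiest of them after serum, read 15.93, 15.96 and 16.07 in myc-/- siCtrl cells and 15.11, 15.02 and 15.04 in myc-/- + MYC cells. The drop was seen in every culture, with a log2FC of -0.93 (SE 0.0400, limma adjusted p = 2.04e-09). The 12-library set gave 16.08, 16.20 and 16.09 without MYC and 15.89, 15.85 and 15.92 with it, a log2FC of -0.24 (limma-adjusted p = 0.00298) that did not pass the fold cutoff.

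Jun itself was lower with MYC in the 6-library set and higher in the 12-library set, in both cases short of the fold cutoff. It read 15.30, 15.31 and 15.33 without and 14.69, 14.78 and 14.86 with MYC in the 6-library set (log2FC -0.54, limma adjusted p = 1.68e-07). It read 15.69, 15.77 and 15.70 without and 16.04, 16.04 and 15.96 with MYC in the 12-library set (log2FC 0.29, limma adjusted p = 8.46e-04). Junb, which opposes Jun at some promoters, was lower with MYC in both sets without passing the fold cutoff. Values in the 6-library set were 15.17, 14.88 and 14.94 without and 14.88, 14.58 and 14.75 with MYC, where the nearest cultures of the groups were almost level. Its log2FC was -0.26 in the 6-library set (limma-adjusted p = 0.0111) and -0.36 in the 12-library set (limma-adjusted p = 3.90e-04).

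Ier2 encodes a short-lived nuclear protein of the immediate early response. In the 6-library set it read 13.56, 13.42 and 13.44 without MYC and 13.82, 13.68 and 13.86 with MYC, a log2FC of 0.31 that stayed below the fold cutoff (limma-adjusted p = 1.71e-04). Ier2 rose in the 12-library set from 13.43, 13.49 and 13.48 to 14.28, 14.42 and 14.44, with a log2FC of 0.91 (SE 0.0502, limma adjusted p = 1.98e-05). No culture with MYC was as low as any without in either set.

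**Figure D2:**
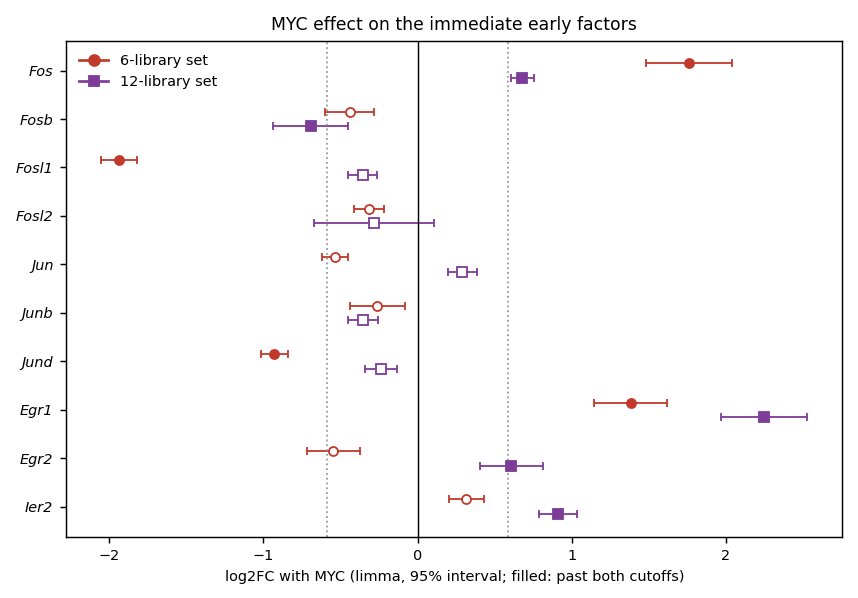
Log2FC of each factor with MYC (horizontal axis) in the 6-library set (circles) and the 12-library set (squares), with 95% intervals from limma, filled where both cutoffs were passed. Dotted lines mark the fold cutoff. Fosl1 lay at -1.94 and -0.36, and Egr2 and Jun lay on opposite sides of 0 in the sets.

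The gap between the 2 effects of MYC (12-library set less 6-library set) was tested in 1 limma fit of 12 libraries. The gap passed both cutoffs for 7 of the 10 factors, while 16.5% of all genes did. The effect of MYC was more positive in the 12-library set for 6 of them, beside 6.79% of all genes, and less positive for 1, beside 9.67%. The differences were 1.58 for Fosl1 (limma-adjusted p = 1.92e-10), 1.15 for Egr2 (1.18e-06), 0.87 for Egr1 (4.35e-04), 0.82 for Jun (2.71e-08), 0.69 for Jund (3.57e-07) and 0.60 for Ier2 (1.47e-05). For Fos it was -1.08 (limma-adjusted p = 2.83e-05), since its rise was larger in the 6-library set. For Jun and Egr2 the sign of the log2FC differed between the sets. Differences of -0.25 for Fosb, 0.03 for Fosl2 and -0.09 for Junb did not pass, with 95% intervals from -0.51 to 0.01, -0.29 to 0.36 and -0.32 to 0.13. The call for Ier2 rested on single cultures. It was lost without myc-/- + MYC siCtrl replicate 2 or 3, myc-/- + MYC replicate 2, myc-/- siCtrl replicate 1 or myc-/- replicate 1, with values down to 0.54, and after quantile normalization (0.50). Transfection runs with MYC in opposite directions in the sets, so a dependence on the set and on transfection cannot be told apart. Whether the scales of the sets differ in a way that changes the size of a log2FC was not tested.

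Windows around the start of 8 of the 10 genes were in the RefSeq promoter table (rat assembly GRCr8, not the rn6 assembly the reads were aligned to). Fos and Jun have no entry. In each of the 8, the 250 bases before the start and the 50 after it were searched on both strands. Exact matches to 5 motifs were sought. The matches found lie before the start and do not overlap one another. The CRE (TGACGTCA) is a site for CREB and for dimers of Jun with ATF proteins, and the CArG box is the binding site of serum response factor. The AP-1 site TGAGTCA was in 4.63% of all 33469 windows of this length and in 0 of the 8. The E-box CACGTG, the site of MYC with its partner MAX, was in 6.42% of all windows and in 0 of the 8. The CRE was in 1.83% of all windows and in those of Jund and Ier2, the EGR site GCGTGGGCG was in 0.544% and in that of Jund, and the CArG box was in 1.64% and in those of Egr1 and Egr2. The 4 windows with a match are shown without their transcribed bases. They are given because Egr1 and Egr2, which share the CArG box, had log2FC values of opposite sign with MYC in the 6-library set. Egr2 did not pass there (-0.55), and in the 12-library set both were higher with MYC (2.25 for Egr1 and 0.61 for Egr2). Capitals mark the matches. In Egr1, on the plus strand of chr18:26736828-26737077, CArG boxes span bases -105 to -96 and -83 to -74 counted from the start. In Egr2, on the minus strand of chr20:21054442-21054691, the box also spans -83 to -74. In Jund, on the minus strand of chr16:18769772-18770021, the CRE spans -221 to -214 and the EGR site -76 to -68. In Ier2, on the plus strand of chr19:40399123-40399372, the CRE spans -66 to -59.
Egr1: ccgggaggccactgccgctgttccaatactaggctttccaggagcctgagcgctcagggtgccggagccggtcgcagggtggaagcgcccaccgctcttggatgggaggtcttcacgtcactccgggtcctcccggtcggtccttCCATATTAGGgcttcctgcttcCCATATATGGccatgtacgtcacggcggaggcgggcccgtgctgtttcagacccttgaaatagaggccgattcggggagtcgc
Egr2: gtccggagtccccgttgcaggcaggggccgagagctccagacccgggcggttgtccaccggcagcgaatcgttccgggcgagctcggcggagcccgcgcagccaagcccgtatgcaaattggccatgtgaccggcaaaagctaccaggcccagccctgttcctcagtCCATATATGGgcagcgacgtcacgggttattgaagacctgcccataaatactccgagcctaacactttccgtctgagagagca
Jund: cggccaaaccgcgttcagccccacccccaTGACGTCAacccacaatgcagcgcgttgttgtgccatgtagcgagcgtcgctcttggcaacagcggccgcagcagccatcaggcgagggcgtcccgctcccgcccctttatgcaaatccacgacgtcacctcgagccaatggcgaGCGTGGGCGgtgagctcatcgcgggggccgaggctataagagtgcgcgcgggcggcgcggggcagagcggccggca
Ier2: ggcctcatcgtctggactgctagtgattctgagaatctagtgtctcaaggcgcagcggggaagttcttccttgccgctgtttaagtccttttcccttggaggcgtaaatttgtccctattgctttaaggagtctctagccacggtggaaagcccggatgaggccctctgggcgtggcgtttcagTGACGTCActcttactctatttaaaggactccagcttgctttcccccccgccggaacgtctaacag
These matches describe the sequence only, and binding at these windows was not measured here.

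Other genes around these factors were read from lists of textbook members, which were also chosen with earlier results of these data known. The lists share some genes, namely Errfi1, Dusp1, Maff, Atf3, Nab2 and Creb1, and such a gene was counted in each of its lists. Of 33 other immediate early genes, 18 fell and 0 rose with MYC in the 6-library set. In the 12-library set 13 fell and 3 rose. This was 54.5% and 48.5% of the list, beside 26.8% and 25.5% of all genes. The median log2FC of the 33 was -0.70 and -0.39, beside 0.00 over all genes in each set. In the 6-library set the largest falls were those of Errfi1 (-1.86), which restrains EGF receptors, Nfkbiz (-1.74), Klf4 (-1.64) and Trib1 (-1.60). In the 12-library set they were those of Ctgf (-2.22), a matricellular protein, Nr4a2 (-2.16), an orphan nuclear receptor, Klf4 (-1.51) and Trib1 (-1.23), while Ier3 (0.89), Nr4a3 (0.68) and Btg1 (0.66) rose. The rises of Fos and Egr1 therefore stood beside falls in most of the other listed immediate early genes that passed. Of these log2FC values, each passed with a limma adjusted p of at most 3.17e-04. The difference between the MYC effects passed for 11 of the 33 (33.3%, beside 16.5% of all genes), higher in the 12-library set for 8 and lower for 3. It was positive for Errfi1 (1.30), Cyr61 (1.23), a matricellular protein, Ier5 (1.10) and Plk2 (0.91), and negative for Nr4a2 (-1.46), Ctgf (-1.12) and Nr4a1 (-1.11). After median centring 11 were higher and 3 lower.

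Target genes of AP-1 and EGR factors in textbooks went down with MYC or did not pass. Of 28 such genes, 22 fell in the 6-library set and 16 in the 12-library set, and 0 rose in either. This was 78.6% and 57.1% of the list, while 14.3% and 14.7% of all genes fell. The median log2FC of the 28 was -0.98 and -0.78. The metalloproteinases Mmp10 (-3.57), Mmp3 (-3.42) and Mmp9 (-3.12) and the matrix protein gene Tnc (-2.66) fell most in the 6-library set. In the 12-library set the genes that fell included Mmp9 (-3.91), the chemokine gene Ccl2 (-2.92) and Tnc (-2.89). The number of target genes that fell in the 6-library set was 19 after quantile normalization and 23 after median centring, and it was 16 in the 12-library set under both. The difference between the sets passed for 15 of the 28 (53.6%, beside 16.5% of all genes). It was positive for Mmp10 (2.34), Spp1 (1.58), Mmp12 (1.54) and Lif (1.07) and negative for F3 (-2.07), Plaur (-1.34) and Tgfb1 (-1.02).

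**Figure D3:**
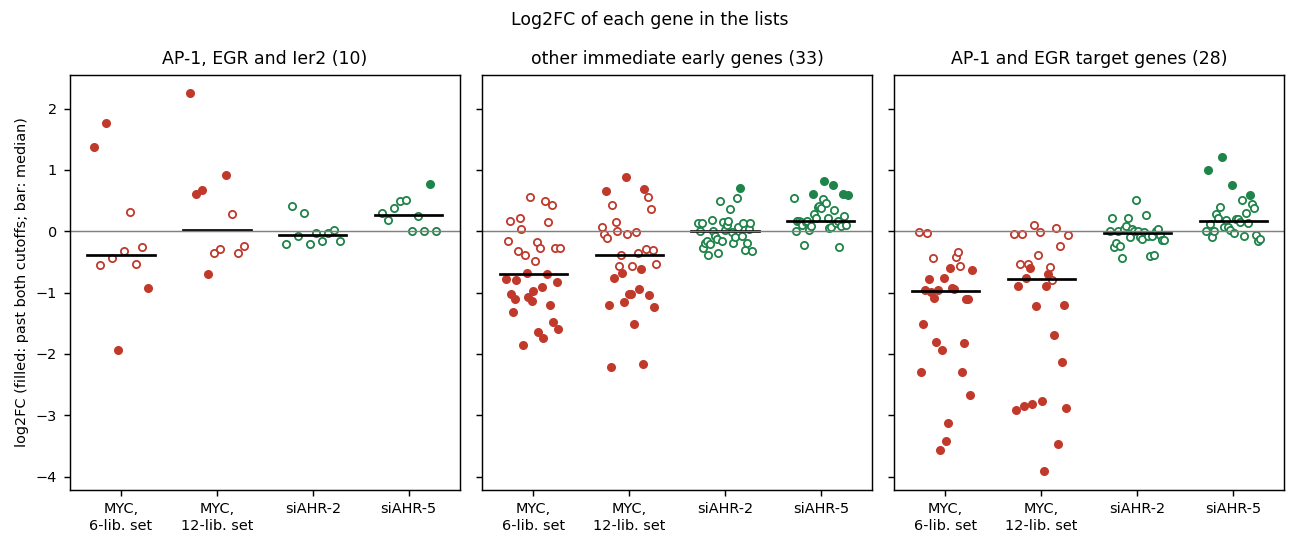
Log2FC (vertical axis) of each gene of 3 lists in 4 comparisons, filled where both cutoffs were passed, with the median of each list as a bar. Among the 28 target genes the medians with MYC were -0.98 and -0.78, and with siAHR-5 all filled points of the 3 lists lay above 0.

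Among 23 bZIP partners and regulators of AP-1, 6 fell and 1 rose with MYC in the 6-library set, and 5 fell and 0 rose in the 12-library set. This was 30.4% and 21.7% of the list, near the 26.8% and 25.5% of all genes. The median log2FC of the 23 was -0.40 and -0.08, but -0.20 and -0.03 after quantile normalization and -0.44 and -0.04 after median centring. The fallen genes included Batf (-2.29 in the 6-library set), a Jun partner, Cebpb (-1.85 in the 6-library set and -1.67 in the 12-library set) and Jdp2 (-1.65 in the 12-library set), a repressor of AP-1. Atf7 was the gene that rose (0.67). Maff (-0.92) and Maf (-0.70 and -1.28), small and large Maf proteins, and Atf5 (-1.50 in the 12-library set) fell as well. The difference between the sets was 2.21 for Batf, 0.62 for Ddit3, -1.10 for Atf5 and -0.96 for Jdp2. Batf read 9.13 without and 6.84 with MYC in the 6-library set. In the 12-library set it read 3.23 without and 3.15 with MYC, a low level at which little fall could show.

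Upstream of the factors, 32 ERK, JNK and p38 pathway kinases and RAS genes were measured. With MYC 4 rose and 4 fell in the 6-library set, and 4 rose and 2 fell in the 12-library set. These were shares of 25.0% and 18.8%, beside 26.8% and 25.5% of all genes. The median log2FC of the list was -0.03 and 0.01. Map2k6, which activates p38, rose by 2.79 and 1.75, and the kinase genes Rps6ka1 (1.27 and 1.51) and Rps6ka5 (0.80 and 0.70) rose in both sets. Mapkapk3 (-1.42 and -2.18) and Rps6ka4 (-1.27 and -0.98) fell in both. Rps6ka3 rose (0.87) and Hras fell (-0.70) in the 6-library set. Rps6ka2 fell in the 6-library set (-1.31) and rose in the 12-library set (1.09), with a difference of 2.39. The difference was -1.04 for Map2k6 and -0.76 for Mapkapk3. The list for SRF had 6 genes in the expression table, Srf, Elk1, Elk3, Elk4, Myocd and Creb1, the last not an SRF cofactor. The cofactor genes Mkl1 and Mkl2 were not in it. Elk3, a ternary complex factor, fell in the 12-library set (-0.72), and no other of the 6 passed with MYC in either set.

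The brakes of the pathway were mixed. Of 19 MAPK phosphatases, feedback inhibitors and EGR corepressors, 2 rose and 7 fell in the 6-library set, and 3 rose and 6 fell in the 12-library set. This was 47.4% of the list in each set, beside 26.8% and 25.5% of all genes. The median log2FC of the list was -0.38 and -0.29, the latter -0.18 after quantile normalization. Dusp6, an ERK phosphatase, rose in both (0.71 and 1.28), as did Dusp4 (1.37 and 0.68), and Spry4 rose in the 12-library set (0.92). Dusp7 fell in both (-1.19 and -1.11). Dusp8 (-2.22) and Dusp5 (-1.04) fell in the 6-library set, together with Errfi1, and Dusp14 (-1.32), Dusp10 (-1.09) and Nab2 (-0.90), a corepressor of EGR factors, fell in the 12-library set. The difference between the sets was 1.35 for Dusp8, 1.30 for Spry4, 1.30 for Errfi1, 0.97 for Dusp5, -1.21 for Dusp14 and -0.68 for Dusp4.

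Heat shock and stress genes, which share inducers with immediate early genes, were read beside them. Of 14, 1 rose and 2 fell with MYC in the 6-library set, and 0 rose and 4 fell in the 12-library set. This was 21.4% and 28.6% of the list, near the 26.8% and 25.5% of all genes. Hspb1 (1.30) rose and Hmox1 (-0.99) and Bag3 (-0.72) fell in the 6-library set. Hmox1 (-1.29), Bag3 (-1.09), Hspa5 (-0.86) and Hspa1b (-0.73) fell in the 12-library set. Their median log2FC was -0.10 and -0.04, but 0.04 and 0.14 after quantile normalization, and their part in the results on the immediate early factors was not tested. Between the sets, Hspb1 differed by -1.12 and Hspa5 by -0.78.

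The second question was what the siRNAs against the aryl hydrocarbon receptor do to these factors in cells with MYC. Both siRNAs were compared with the same 3 myc-/- + MYC siCtrl cultures, so the comparisons are not independent. With siAHR-2, 0 of the 10 factors passed both cutoffs, as did 0.47% of all genes. At an unadjusted limma p under 0.05 there were 5 (40.4% of all genes), at an adjusted p under 0.05 there were 3 (29.3% of all genes), and for 3 the groups did not overlap, which held for 43.3% of all genes. With siAHR-5, Junb passed, 1 of 10 beside 2.32% of all genes (1.47% rose). At an adjusted p under 0.05 there were 5 (39.2% of all genes), and the groups did not overlap for 6, beside 50.5%. Over all genes, 21 rose and 41 fell with siAHR-2, and 15 and 53 after median centring. With siAHR-5, 194 rose and 112 fell, but 131 and 128 did so after quantile normalization and 140 and 165 after median centring.

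Junb read 14.59, 14.67 and 14.63 in siCtrl cells, 14.58, 14.73 and 14.65 with siAHR-2 and 15.23, 15.53 and 15.43 with siAHR-5. The siAHR-2 cultures overlapped the controls, and all siAHR-5 cultures lay above both. The log2FC was 0.77 with siAHR-5 (SE 0.0778, limma adjusted p = 0.00124) and 0.03 with siAHR-2 (limma-adjusted p = 0.719). Junb with siAHR-5 was also above the 14.92, 15.02 and 15.01 of myc-/- cells.

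Fosl1 had log2FC values of opposite sign with the siRNAs, without passing the fold cutoff with either. It was 12.80, 12.92 and 12.85 with siCtrl, 12.68, 12.62 and 12.66 with siAHR-2 and 13.31, 13.40 and 13.40 with siAHR-5. None of these groups overlapped. The log2FC was -0.21 with siAHR-2 (limma-adjusted p = 0.0120) and 0.51 with siAHR-5 (limma-adjusted p = 7.19e-04).

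Fos was 12.94, 13.12 and 12.97 with siAHR-2 and 13.47, 13.46 and 13.51 with siAHR-5, and only the latter group was apart from the controls (log2FC 0.39, limma adjusted p = 4.04e-04). Egr1 was 14.98, 15.17 and 15.13 with siAHR-2 and 15.54, 15.57 and 15.67 with siAHR-5. Here too the siAHR-5 cultures were above the controls (log2FC 0.30, limma adjusted p = 0.0354), and the siAHR-2 cultures overlapped them. Fosb was 10.19, 10.36 and 10.36 with siAHR-2 and 10.39, 10.61 and 10.53 with siAHR-5, a log2FC of 0.29 under siAHR-2 (limma-adjusted p = 0.0871) and of 0.50 under siAHR-5 (limma-adjusted p = 0.0137). Without siCtrl replicate 1, the highest control, Fosb passed both cutoffs with siAHR-5 (0.59), which makes 2 of 10.

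Egr2 was the factor with the largest log2FC under siAHR-2. Its values were 10.00, 10.06 and 9.95 with siAHR-2 and 9.68, 9.82 and 9.82 with siAHR-5. The siAHR-2 cultures were above all controls (log2FC 0.41, limma adjusted p = 0.00675), and the siAHR-5 cultures overlapped them (log2FC 0.18, limma adjusted p = 0.0854). Jund was lower with siAHR-2, at 15.75, 15.76 and 15.64 (log2FC -0.17, limma adjusted p = 0.0237), and was 15.80, 16.07 and 15.81 with siAHR-5 (log2FC 0.01, limma adjusted p = 0.992). Ier2 was 14.18, 14.29 and 14.21 with siAHR-2 and 14.49, 14.77 and 14.61 with siAHR-5, with log2FC values of -0.15 and 0.25 (limma-adjusted p = 0.0870 and 0.0624). Jun and Fosl2 differed from the controls by at most 0.03 in size with either siRNA, and their groups overlapped.

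**Figure D4:**
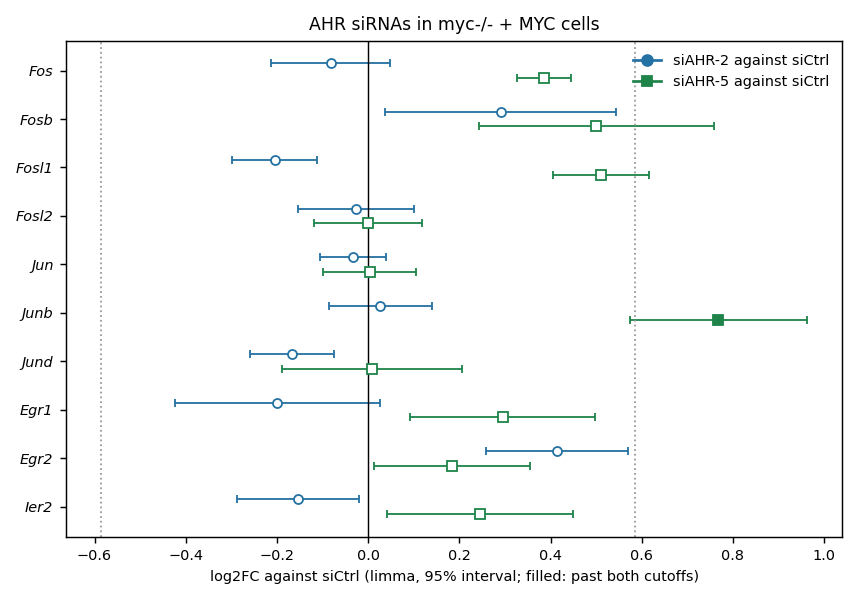
Log2FC of each factor against the shared siCtrl cultures (horizontal axis) with siAHR-2 (circles) and siAHR-5 (squares), with 95% intervals from limma, filled where both cutoffs were passed. Dotted lines mark the fold cutoff. Junb with siAHR-5, at 0.77, was the 1 filled point, and Fosl1 lay at -0.21 and 0.51.

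The siRNAs were compared with each other directly, which asks whether the 2 reagents against the same receptor gave the same levels. Fosl1 and Junb passed both cutoffs, 2 of 10 beside 2.18% of all genes. Both were higher with siAHR-5, as were 1.33% of all genes, Fosl1 with a log2FC of 0.72 (SE 0.0333, limma adjusted p = 1.18e-04) and Junb with 0.74 (SE 0.0842, limma adjusted p = 0.00166). Junb no longer passed when siAHR-2 replicate 1, siAHR-2 replicate 3 or siAHR-5 replicate 3 was left out, although the log2FC stayed between 0.68 and 0.82. Below the fold cutoff, Egr1 (0.49), Fos (0.47) and Ier2 (0.40) were higher and Egr2 (-0.23) was lower with siAHR-5, each with a limma adjusted p of at most 0.0212. The groups did not overlap for 8 of the 10, beside 49.5% of all genes. Ahr itself differed by -0.11 between the siRNAs (95% interval from -0.25 to 0.04, limma adjusted p = 0.211).

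The lists were read beside the shares of all genes that passed, 0.47% with siAHR-2, 2.32% with siAHR-5 and 2.18% between the siRNAs. Among the other immediate early genes, Nr4a3 rose with siAHR-2 (0.70) and 5 of 33 rose with siAHR-5. These included the flow-responsive factor Klf2 (0.83), the orphan receptor Nr4a1 (0.76), Rhob (0.61) and Gadd45b (0.60), and the number was 5 after quantile normalization and 2 after median centring. Against siAHR-2, 5 of the 33 were higher with siAHR-5, among them Zfp36 (0.93), which destabilizes AU-rich mRNAs, Rhob (0.80), Gadd45b (0.73) and Klf2 (0.66). Of the AP-1 partners, Jdp2 (0.75) and Ddit3 (0.63) rose with siAHR-5, 1 of them after median centring, and 0 of 23 passed with siAHR-2. Of the 28 target genes, 0 passed with siAHR-2 and 4 rose with siAHR-5, among them Hmga2 (1.21), Ccl2 (1.00) and Mmp13 (0.75). The median log2FC with siAHR-5 was 0.17 over the 33 immediate early genes and 0.17 over the 28 target genes, beside 0.01 over all genes, and after median centring it was 0.12 and 0.11. Of the brakes, Spred3 (0.73) rose with siAHR-5, a call absent after quantile normalization. No kinase and none of the 6 genes of the SRF list passed against siCtrl with either siRNA on the deposited values. Map3k7, which read -0.57 with siAHR-5, passed after quantile normalization (-0.69) and after median centring (-0.63). Of the 14 stress genes, Hmox1 (0.66) rose with siAHR-2, and Hspb1 (0.66) rose and Bag3 (-0.79) fell with siAHR-5. Directly compared, siAHR-5 gave more Hmga2 (1.12), Ccl2 (0.79), Plaur (0.71), Jdp2 (0.69), Ddit3 (0.63) and Hspb1 (0.65), and less Bag3 (-0.72), Map3k7 (-0.61) and Rps6ka4 (-0.59), than siAHR-2.

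Within the 12-library set the groups could be ordered for each factor by their means. Egr1, Fos and Ier2 shared an order, with myc-/- lowest, then siAHR-2, siCtrl and siAHR-5, and in all 3 the siAHR-2 and siCtrl cultures overlapped while the other neighbours did not. Junb was lowest with siCtrl and siAHR-2, which overlapped, then myc-/- and then siAHR-5. Fosl1 was lowest with siAHR-2, followed by siCtrl, myc-/- and siAHR-5, with no overlap between neighbours. Fosb was highest and Egr2 lowest in myc-/- cells. For Jun the 3 groups with MYC overlapped, all above myc-/-, and for Jund the siCtrl and siAHR-5 groups overlapped, between siAHR-2 below and myc-/- above. For Fosl2 all neighbours overlapped.

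The factors also differed in how closely cultures of a group agreed. The pooled SD within groups was 0.160 for Egr1, which was larger than that of 98.5% of 10716 genes with a mean of at least 5, 0.142 for Fos (96.9%) and 0.138 for Fosl2 (96.5%). Without myc-/- replicate 2, a choice made after seeing the data, that of Fosl2 was 0.0538, beside a median over genes of 0.0562, and those of Egr1 and Fos were 0.149 and 0.148. With all libraries it was 0.0621 for Fosl1 (44.6%) and 0.0517 for Jun, beside a median over genes of 0.0653. Without myc-/- replicate 2 that of Fosl1 was 0.0645, above the median of 0.0562, and that of Jun was 0.0503, below it. For Fos the SD was 0.246 and 0.220 in the groups of the 6-library set and between 0.0253 and 0.0986 in those of the 12-library set, so its wide spread lay in the 6-library set. For Egr1 it was between 0.0674 and 0.266 over the 6 groups. Jun was steadier than most genes.

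For each of the 9 factors that passed in at least 1 comparison, the difference between the MYC effects included, the genes with the most similar pattern were found over the 18 libraries, by the root-mean-square difference of log2 values after centring each gene in each set, among 10423 genes. Junb was closest to Klf2 (0.0972) and Gadd45b (0.123), both on the list of immediate early genes, and to Fxyd5 (0.131). Ier2 was closest to Fam212a, Ier3 and Dear, and Jund to Arpc2, Tmem43 and Maff. Jun, which passed for the difference between the sets, was closest to Irx2 (0.0576). Fosl1 was closest to Spp1 (0.130), which encodes osteopontin, and to Elovl4. Fos lay nearest to Ppm1j, Syt15 and Tmem123, Fosb to Rgs12, Pitpnm1 and Ggn, Egr1 to Grik5, Ccdc152 and Ifi30, and Egr2 to Mmaa, Cenpm and Prim2. The libraries share their groups, so these are descriptions.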

How the data were processed

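RNA-seq had been done on polyadenylated RNA of 18 cultures in 6 groups of 3, grouped by the sample labels. The authors checked the reads, aligned them to rn6 with HISAT2 2.1.0, left out genes under 10 reads in total and normalized the others with DESeq2. The read counter, its use of strand and the annotation are not given in the sources used here. The values deposited by the authors are log2 expression for 13188 genes. They hold no counts, so depth is unknown, and off the log scale they sum to between 86.3 and 161 times what a library in CPM sums to.

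Each comparison of 3 cultures with 3, and the difference between the MYC effects, was fitted with limma 3.58.1 in R 4.3.3 (eBayes with trend, 2-sided) on the deposited values. The Benjamini-Hochberg adjustment covered all 13188 genes. Cutoffs were a change of 1.5-fold and an adjusted p of 0.01. The fits were tested on simulated data. All 10 factors are named, with rat Myc and Ahr as checks, up to 4 genes past the cutoffs in each direction from each list and comparison, and the 3 most similar genes of each factor that passed. Of the genes this rule picks, 2 are not reported here. Members, lists and markers were chosen with earlier results of these data known. Alternatives were an FDR of 5% without a fold cutoff, all 18 libraries in 1 fit, no trend, quantile normalization, median centring, a filter on the mean at 5, the replicate block, a pseudocount of 1 and omission of each library. Promoter sequences are from RefSeq (GRCr8). A comparison of protein sequences was planned and not run. Python 3.11.15 and matplotlib 3.10.9 drew the plots.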

Additional observations from a re-analysis of the deposited data

Results flagged for a closer look

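The effect of MYC differed between the 6-library set and the 12-library set by a limma test of the difference itself for 7 of the 10 factors. On the log2 scale, 12-library set minus 6-library set, the differences were 0.866 for Egr1, 1.15 for Egr2, -1.08 for Fos, 1.58 for Fosl1, 0.597 for Ier2, 0.825 for Jun and 0.691 for Jund. Jun and Egr2 were lower with MYC in the 6-library set and higher in the 12-library set.

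The effects of the siRNAs on cells with MYC differed, by the direct limma comparison of siAHR-5 with siAHR-2, for Fosl1 (0.716) and Junb (0.741).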

How the results depend on the processing

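Without the fold cutoff, at an FDR of 5%, the genes that passed numbered 10051 for MYC in the 6-library set, 8538 in the 12-library set, 3860 for siAHR-2, 5169 for siAHR-5, 5151 between the siRNAs and 7235 for the difference between the MYC effects. The factors then numbered 10, 9, 3, 5 and 6 in the first 5 of these, and 7 for the difference. With the replicate block, 0 genes passed for siAHR-2 in place of 62, and the call of each factor stayed on its side of the cutoffs in all comparisons. Same-numbered cultures had correlations of their deviations over 0.1 in only some pairs, from -0.256 to 0.242, so the numbers were not taken to pair the cultures. In no comparison did every culture correlate best with its own number.

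Among the factors, signs changed only for values near 0. After quantile normalization siAHR-2 gave 0.0436 for Jun. After median centring siAHR-2 gave -0.0040 for Junb, siAHR-5 gave -0.0564 for Jun and -0.0515 for Jund, and the siRNAs differed by -0.0028 for Fosl2. For the difference between the MYC effects, median centring gave 1148 genes higher and 1036 lower, in place of 896 and 1275. For MYC in the 6-library set, quantile normalization gave 1799 genes higher and 1684 lower, in place of 1653 and 1884. In the 12-library set it gave 1754 higher and 1630 lower, in place of 1425 and 1936. No trend, the filter on the mean and the pseudocount moved no call of a factor. Neither did all 18 libraries in 1 fit, which was not run for the difference between the MYC effects.

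Leaving out 1 library kept the number of factors past the cutoffs between 4 and 5 for MYC in both sets, 1 and 2 for siAHR-5, 1 and 2 between the siRNAs and 6 and 7 for the difference. The genes that passed ranged from 52 to 64 for siAHR-2 and from 274 to 297 for siAHR-5. With 1 library left out at a time, siAHR-2 values ranged from -0.0657 to 0.0220 for Fosl2 and from -0.0128 to 0.0664 for Junb. With siAHR-5 they ranged from -0.0398 to 0.0479 for Fosl2, from -0.0328 to 0.0282 for Jun and from -0.0815 to 0.0558 for Jund. The difference between the MYC effects ranged from -0.148 to 0.137 for Fosl2. Junb between the siRNAs ranged from 0.677 to 0.824.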

Other observations

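The 10 factors did not deviate alike in all libraries. In siAHR-5 replicate 1, 0 of the 10 were above the mean of their group, against 8 in replicate 2 and 7 in replicate 3. In siAHR-2 replicate 2, 9 of the 10 were above it, against 2 in replicate 1 and 3 in replicate 3. The deviations reached at most -0.165 in siAHR-5 replicate 1 and 0.113 in siAHR-2 replicate 2 on the log2 scale.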
